A study of Mus musculus with 15 samples.

Results

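The NF-κB pathway was followed in MH-S cells through 10 genes chosen by name, namely the 5 genes of the transcription factor subunits (Rela, Rel, Relb, Nfkb1 and Nfkb2) and 5 genes of proteins that restrain or modulate it (Nfkbia, Nfkbib, Nfkbie, Nfkbiz and Tnfaip3). The second 5 are called inhibitors below as a group name only, since the Nfkbiz product also helps induce some targets. All 10 were found among 78317 gene identifiers, and all 10 passed the filter on low counts that left 16654 genes tested. MH-S is a virus-transformed line of murine alveolar macrophages, and the study sequenced RNA from it to compare the response to inhalable calcium phosphate microrods with that to silica microrods. Cells were kept for 24 h in medium alone (M0), with 1 µg/mL LPS plus 20 ng/mL IFN-γ (M1), with IL-4 at 20 ng/mL (M2), or with rods at 0.1 mg/mL made of CaP or SiO2 nanoparticles (CaP_rods and SiO2_rods). Both rod types were crosslinked with alginate (Alg) and coated in layers of protamine (Prot) and carboxymethyl chitosan (CMC), so the rod groups shared their polymers and differed in the particle framework, and M0 received neither rods nor polymers. The paper states that equal doses by mass hold different numbers of CaP and SiO2 rods, and it reports higher cytotoxicity for SiO2 rods. Framework, rod number per cell and cell damage therefore cannot be told apart between the rod groups. Each group had 3 libraries from separate wells of 1 cell passage, and each rod well held its own particle batch, so the errors cover wells and batches but not passages of the line.

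NF-κB dimers are held in the cytoplasm by IκB proteins in resting cells. Ligands such as LPS, bound by Toll-like receptors, activate the IKK complex, which marks IκB for degradation and lets dimers of RelA and the Nfkb1 product enter the nucleus (the canonical arm). The Relb and Nfkb2 products form the slower, non-canonical arm. Dimers in the nucleus switch on the genes of their own inhibitors, so that the transcripts of Nfkbia (IκBα), Nfkbiz (IκBζ) and Tnfaip3 (A20, a ubiquitin-editing enzyme that shuts off receptor complexes) are widely used as readouts of the pathway in macrophages.

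Matches to the NF-κB motif near the start sites of these genes are shown first, because some of the inhibitor genes are known targets of the factor. Promoters of 300 bases (250 before and 50 after the start site, from RefSeq on GRCm38.p6, an older build than the GRCm39 named in the submitters' processing notes) were searched for the NF-κB consensus motif of 10 bases on both strands. Promoters were found for 7 of the 10 genes, and 5 of these 7 (71.4%) held at least 1 match, against 9.55% of 27025 genes with a promoter. The genes were chosen by name as parts of this pathway, some of them known targets, so these shares are description and not a test. Rel, Nfkb2, Nfkbia, Nfkbie and Tnfaip3 held matches, Rela and Nfkbib had none in this window, and Nfkb1, Nfkbiz and Relb were not matched to an entry. Capitals mark the motif, with overlapping matches merged, and each line reads 5′ to 3′ on the strand of the gene.
Nfkbia: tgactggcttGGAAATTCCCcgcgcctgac
Rel: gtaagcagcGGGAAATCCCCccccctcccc
Nfkb2: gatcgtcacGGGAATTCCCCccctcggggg
Nfkbie: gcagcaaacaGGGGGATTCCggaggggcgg
Tnfaip3 distal: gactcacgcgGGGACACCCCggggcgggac
Tnfaip3 proximal: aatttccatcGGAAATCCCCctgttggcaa
The Nfkbia window lies at chr12:55492657-55492686 on the minus strand, with its motif starting 29 bases before the start site. The Rel window lies at chr11:23771041-23771070 (minus strand, 92 bases before the start site), the Nfkb2 window at chr19:46304689-46304718 (plus strand, 39 bases before) and the Nfkbie window at chr17:45555584-45555613 (plus strand, 106 bases before). The Tnfaip3 windows lie at chr10:19015516-19015545 and chr10:19015403-19015432 on the minus strand, 125 and 12 bases before the start site. Nfkb2 had 3 start sites in the set, with 3, 2 and 1 matches, and 1 window of the first is shown. Tnfaip3 had 2 start sites, with 2 matches at the first, both shown, and 0 at the second. A match describes letters in the window and is not a site shown to be bound.

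Total counts per library ran from 8459643 to 68750050, and levels are given as CPM, counts scaled to a common library size with TMM factors. The quasi-likelihood test of edgeR was fitted to all 15 libraries, with Benjamini-Hochberg adjustment over the 16654 genes. A gene was called higher or lower when its adjusted p was under 0.05 and its log2 fold change exceeded 0.5 in size. All adjusted p-values below come from this test unless another is named. Replicates differed by more than sampling noise in each of the 15 pairs (chi-square per gene, over the genes above a count minimum in that pair, 7.55 to 152). The stimuli left their marks, with Il1b at 359 to 450 CPM in M1 against at most 2.8 CPM in the other groups, and Arg1 at 1380 to 1720 CPM in M2 against at most 23.5 CPM elsewhere. General macrophage markers such as Cd68 (677 to 1320 CPM) were present in every library, Mertk reached at most 0.501 CPM, and the alveolar macrophage markers Siglecf (at most 0.478 CPM), Car4 (at most 0.086 CPM) and Ear2 (0 in all libraries) were at or near 0. The summed level of 8 alveolar macrophage markers lay between 3 and 6.18 CPM over all groups. Markers of lymphocytes and epithelium summed to at most 0.43 and 0.0682 CPM, those of fibroblasts and endothelium to 0.232 to 1.71 CPM, and those of neutrophils to 0.68 to 1.37 CPM in M1 and at most 0.349 CPM elsewhere. The part of these low signals in the results was not tested. In bulk RNA, a change in the number of cells of 1 state and a change in RNA per cell cannot be told apart.

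In resting cells, Nfkbia was the main inhibitor transcript and Nfkb1 the main subunit transcript. Per kilobase of transcript, which allows levels to be compared between genes, Nfkbia stood at 170 ± 40 CPM per kb in M0 (SD, n = 3) and made up 79.9% ± 1.44 of the summed level of the 5 inhibitor genes. Nfkbib, the gene of IκBβ, followed with 17.2% ± 1.18, Nfkbie, the gene of IκBε, with 2.09% ± 0.37, and Nfkbiz and Tnfaip3 with under 1% each. Among the subunits, Nfkb1 held 53.4% ± 2.81 of the summed level per kilobase in M0, Rela 20.7% ± 2.22, Nfkb2 12% ± 2.21, Relb 11.5% ± 1.61 and Rel 2.46% ± 0.197. The inhibitors together were at 213 ± 47.5 CPM per kb and the subunits together at 31.2 ± 5.19 CPM per kb.

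**Figure D1:**
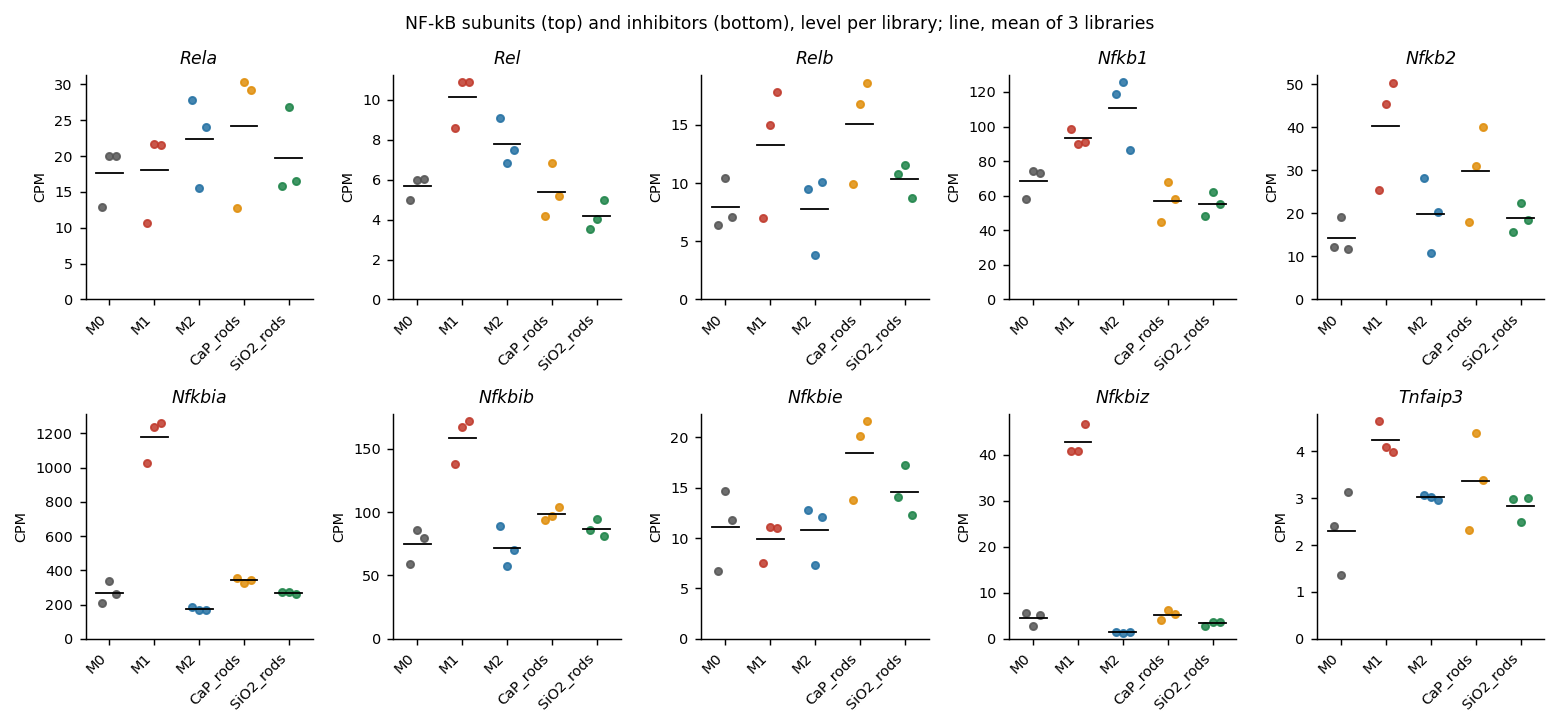
Level of each of the 10 genes in CPM (vertical axes, linear from 0) in the 15 libraries by group (horizontal axes), with a point per library and a line at the mean of 3 libraries. Nfkbia and Nfkbiz stand far above all other groups in M1, and Nfkbiz is lowest in M2.

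The first comparison asked what the classical stimulus does to the pathway's own genes. In M1 cells, 5 of the 10 genes were called higher and 0 lower, while 14.1% of all genes tested were called in either direction (9.7% higher and 4.37% lower). The 3 called inhibitors were Nfkbiz, Nfkbia and Nfkbib, and the 2 called subunits were Nfkb2 and Rel. The median log2 fold change was 0.89 over the 10 genes and -0.00609 over all genes tested. The smallest and largest among the 10 were -0.14 for Nfkbie and 3.22 for Nfkbiz.

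Nfkbiz encodes IκBζ, a nuclear IκB protein that is known to help induce a secondary set of NF-κB targets such as Il6. Its changes are therefore not read here as changes in inhibition. Its level was 5.69, 2.73 and 5.1 CPM in M0 and 40.8, 40.7 and 46.6 CPM in M1. The groups were far apart, and the M1 libraries lay close together. The fitted log2 fold change was 3.22 ± 0.25 (SE), a 9.35-fold rise, with an adjusted p of 1.21e-06. Nfkbia, whose product binds dimers and carries them out of the nucleus, stood at 209, 335 and 262 CPM in M0 and at 1030, 1240 and 1260 CPM in M1. Every M1 library stood above every M0 library, and the gene rose 4.39-fold (log2 2.13 ± 0.17, adjusted p = 1.09e-06). Nfkbib was at 58.9, 85.7 and 79.7 CPM in M0 and at 138, 167 and 172 CPM in M1, again without overlap, and rose 2.13-fold (log2 1.09 ± 0.19, adjusted p = 0.00137). These 3 calls were kept under every alternative tried, including the omission of any library.

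Nfkb2 encodes the precursor of the non-canonical DNA-binding subunit. It was at 12.2, 19.1 and 11.8 CPM in M0 and at 25.4, 45.5 and 50.3 CPM in M1, so the groups did not overlap but M1 replicate 1 lay well under the other two. The gene rose 2.81-fold (log2 1.49 ± 0.38, adjusted p = 0.0174). Rel, the gene of the haematopoietic subunit c-Rel, was at 5, 5.98 and 6.02 CPM in M0 and at 8.6, 10.9 and 10.9 CPM in M1 and rose 1.8-fold (log2 0.85 ± 0.23, adjusted p = 0.0226), also without overlap. Both calls depended on single libraries. Without M0 replicate 1, M1 replicate 2 or M1 replicate 3, the adjusted p was 0.0769, 0.0634 and 0.073 for Nfkb2 and 0.104, 0.088 and 0.0798 for Rel, which left 3 called members, and without M0 replicate 3 it was 0.0596 for Nfkb2. Rel also lost its call without a filter on low counts (adjusted p = 0.12) and with an offset for the GC content of transcripts (adjusted p = 0.0599).

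Of the 5 members that were not called, Tnfaip3 and Nfkb1 had groups that did not overlap. Tnfaip3 stood at 2.4, 1.37 and 3.13 CPM in M0 and at 4.64, 4.1 and 3.98 CPM in M1, with a log2 fold change of 0.92 ± 0.3 and an adjusted p of 0.0528. It lay on 91, 21 and 27 counts in M0 and on 54, 60 and 41 counts in M1, and it passed the threshold with DESeq2 (adjusted p = 0.0472), under a filter of at least 10 counts in each library (adjusted p = 0.0415) and without M0 replicate 3 (adjusted p = 0.0399). Nfkb1 was at 57.9, 74 and 72.9 CPM in M0 and at 98.4, 90.1 and 91.3 CPM in M1, with a log2 fold change of 0.45 ± 0.19 and an adjusted p of 0.14. The other three had overlapping groups. Relb had a log2 fold change of 0.74 ± 0.39 (adjusted p = 0.236), Rela, the gene of the main canonical transactivator, of 0.05 ± 0.38 (adjusted p = 0.946) and Nfkbie of -0.14 ± 0.31 (adjusted p = 0.787). The share of all genes tested without overlap was not counted, so overlap is given here and below as description only.

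The 5 inhibitor genes together reached 839 ± 89 CPM per kb in M1, against 213 ± 47.5 CPM per kb in M0. Nfkbia made up 89% ± 0.163 of that sum, and Nfkbib made up 9.18% ± 0.13, less than in M0 although its own level was higher. The 5 subunit genes together were at 47.1 ± 7.38 CPM per kb in M1, with 21.9% ± 4.19 from Nfkb2 and 49.2% ± 10.8 from Nfkb1. The ratio of Nfkbia counts to Rela counts was 16.3, 16.8 and 13.1 in M0 and 96.3, 57.4 and 58.2 in M1. It did not overlap between the groups and was 4.49-fold higher in M1, and the exact two-sided permutation test gave p = 0.1, the smallest that 3 libraries against 3 allow.

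**Figure D2:**
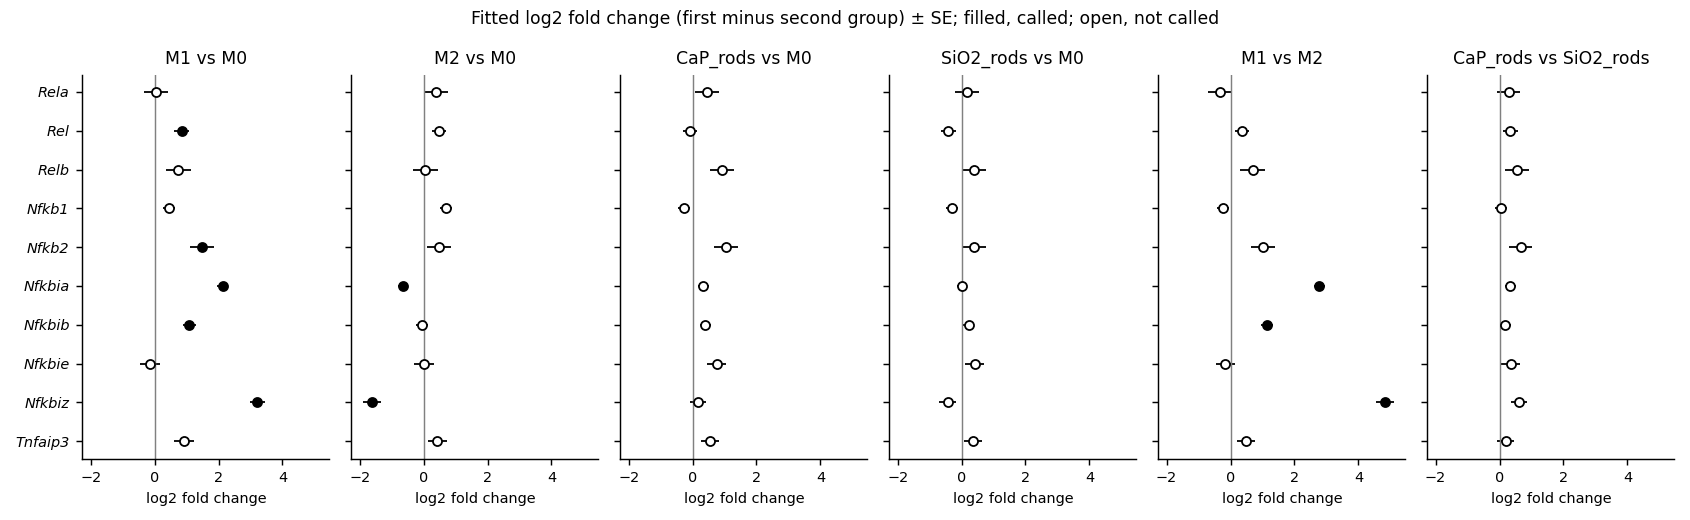
Fitted log2 fold change of the 10 genes (horizontal axes, first group minus second, with the SE as the bar) in the 6 comparisons, 1 panel each, with filled points for called genes and open points for the rest. Filled points occur in the panels of M1 against M0, M2 against M0 and M1 against M2, and the 3 rod panels hold open points.

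The rest of the pathway was read from 72 genes in 6 lists, of which 67 were tested. In M1 against M0, 29 of the 67 were called higher and 1 lower. Of the 67, the target genes Il1a, Il6, Nos2, Csf2 and Lcn2 passed the filter on low counts only through the M1 libraries, where they are high. Over the 62 genes that also passed without those libraries, 24 were called higher and 1 lower with a median log2 fold change of 0.46, beside 13.1% called and a median of -0.02 over all genes that did so. Of the 15 target genes among them, 13 were called higher, with a median of 2.96. In the whole target list the cytokine genes Il1b (411 ± 46.9 CPM in M1 against 1.07 ± 0.231 in M0), Il6 (51.4 ± 5.12 against 0.0176 ± 0.0304) and Il1a (35.6 ± 2.7 against 0 in all M0 libraries) were at or near 0 at rest. Ptgs2, the inducible cyclooxygenase, was at 40.4 ± 2.1 CPM against 0.229 ± 0.137, Lcn2, which binds bacterial siderophores, at 104 ± 18.8 CPM against 0.118 ± 0.104, and Nos2, the inducible nitric oxide synthase, at 6.2 ± 2.17 CPM against 0 in all M0 libraries.

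Of the IKK complex and its kinases, 2 of 11 (18.2%) were called, near the 14.1% of all genes tested, namely Ikbke, an IKK-related kinase (log2 1.57 ± 0.34, adjusted p = 0.0067), and Ikbkg, the regulatory IKK subunit NEMO (log2 0.94 ± 0.15, adjusted p = 0.000954). Of 19 receptor-proximal adaptors and ligases, 5 were called higher and 1 lower. Irak3, which dampens Toll-like receptor signalling, rose 8.78-fold (log2 3.13 ± 0.36, adjusted p = 5.48e-05), and Traf1, an adaptor of TNF receptors, rose 7.13-fold (log2 2.83 ± 0.26, adjusted p = 5.99e-06). The ubiquitin ligase gene Peli1 rose 2.66-fold, Traf2 1.86-fold and Birc3 1.84-fold, while Tirap, the adaptor that brings Myd88 to Toll-like receptors, fell to 0.564 of M0 (log2 -0.83 ± 0.17, adjusted p = 0.00555). Traf2 also lost its call with the 6 M0 and M1 libraries alone (adjusted p = 0.0603), Birc3 with the GC content offset (0.0773) and Tirap without a filter on low counts (0.0536). The calls of Traf2 (adjusted p from 0.0707 to 0.0937) and Birc3 (0.058 to 0.109) were each lost without M0 replicate 1, M1 replicate 2 or M1 replicate 3.

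Of 10 partners of A20 and other deubiquitinases, 3 (30%) were called higher, beside 9.7% of all genes tested. They were Tnip1 (log2 1.44 ± 0.31, adjusted p = 0.00682), Itch (log2 1.29 ± 0.34, adjusted p = 0.0202) and Tank (log2 0.62 ± 0.16, adjusted p = 0.0165). The Itch call was lost without M0 replicate 2 or 3 or M1 replicate 1 or 3 (adjusted p from 0.0513 to 0.0776), and the Tank call without M0 replicate 1 or 2 or M1 replicate 1 (0.0518 to 0.073). The Tank call was also lost without a filter on low counts (0.281), with the 6 M0 and M1 libraries alone (0.0896, and 0.0788 with a replicate block in that fit) and with the GC content offset (0.0773). Of the atypical IκB proteins, Bcl3 rose 5.21-fold (log2 2.38 ± 0.25, adjusted p = 1.92e-05), from 2.79 ± 0.77 to 13.8 ± 0.148 CPM, and Nfkbid was not called (log2 0.48, adjusted p = 0.398). None of the 5 genes of the ligase that marks IκB for degradation was called by edgeR or DESeq2 (0 and 0), and 0 of them had an unadjusted p under 0.05 in edgeR. Over all genes tested, edgeR called 14.1% and had 27.7% at an unadjusted p under 0.05. A count of 0 in only 5 genes does not set this list apart from those shares.

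The same question was put to IL-4, the stimulus of the alternative state. In M2 against M0, 2 of the 10 genes were called lower and 0 higher, while 4.13% of all genes tested were called (2% higher and 2.13% lower). They were Nfkbiz and Nfkbia. The median log2 fold change of the 10 genes was 0.21, against 0.0685 over all genes tested.

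Nfkbiz stood at 1.43, 1.32 and 1.56 CPM in the M2 libraries, all under the 2.73 CPM of the lowest M0 library, and fell to 0.325 of M0 (log2 -1.62 ± 0.29, adjusted p = 0.00512). These values rest on 21, 10 and 109 counts. Nfkbia was at 183, 169 and 166 CPM in M2, all under the 209 CPM of the lowest M0 library, and fell to 0.643 of M0 (log2 -0.64 ± 0.16, adjusted p = 0.0402). This call was marginal, since it was kept without M0 replicate 1 and lost without any 1 of the other 5 libraries, with adjusted p-values from 0.0572 to 0.136, and the difference kept its sign in all of these fits. With the 6 M0 and M2 libraries alone, the adjusted p was 0.157 for Nfkbiz and 0.381 for Nfkbia. The ratio of Nfkbia counts to Rela counts was 6.6, 10.9 and 6.93 in M2, under every M0 library and 0.519 of the M0 mean (log2 -0.95, exact permutation p = 0.1). With the GC index as a covariate the log2 difference was -0.4.

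The subunits showed no called change in M2, by edgeR, with 1 of the 5 at an unadjusted p under 0.05, beside 17.2% of all genes tested. That gene was Nfkb1, at 119, 126 and 86.4 CPM in M2 and above all M0 libraries, with a log2 fold change of 0.69 ± 0.19 and an adjusted p of 0.0604. It passed the threshold with DESeq2 (adjusted p = 0.0113), with DESeq2's size factors (0.0466), under a filter of at least 10 counts in each library (0.0389) and without M2 replicate 3 (0.0385). Rel was also higher in every M2 library than in any M0 library, at 9.08, 6.84 and 7.47 CPM, with an adjusted p of 0.296. Tnfaip3 was at 3.07, 3.03 and 2.96 CPM in M2, within the M0 range, and had a log2 fold change of 0.43 ± 0.29 (adjusted p = 0.511).

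Of the 67 other pathway genes, 1 was called higher and 6 lower in M2 (10.4%), beside 4.13% of all genes tested. Over all genes, 2% were higher and 2.13% lower. The 1 higher and 4 of the 6 lower genes were in the target list. Cd40, the gene of a co-stimulatory receptor, rose 2.21-fold (log2 1.14 ± 0.19, adjusted p = 0.00323). The acute-phase gene Saa3 fell from 28.2 ± 7.06 to 1.14 ± 0.222 CPM (log2 -4.62 ± 0.29, adjusted p = 6.14e-07), Ccl3 from 105 ± 8.8 to 43.3 ± 12.9 CPM (log2 -1.28 ± 0.19, adjusted p = 0.00126) and Tnf from 26.7 ± 8.41 to 11.2 ± 3.91 CPM (log2 -1.22 ± 0.3, adjusted p = 0.0359). Tirap fell in M2 as well (log2 -0.78 ± 0.17, adjusted p = 0.0204). The remaining 2, named here after their values were seen, were Rnf11 (2.32 CPM against 4.69 in M0, adjusted p = 0.0367) and Cxcl10 (0.899 CPM against 2.3, adjusted p = 0.0493). The Tirap call was lost without M0 replicate 3 or M2 replicate 1 or 3 (adjusted p from 0.0784 to 0.104) and the Tnf call without M0 replicate 2 or 3 or M2 replicate 2 or 3 (0.0569 to 0.113). With the 6 libraries alone the adjusted p was 0.296 for Tirap, 0.264 for Tnf, 0.167 for Cd40 and 0.117 for Ccl3, so these calls were lost. Tirap also lost its call without a filter on low counts (0.193), with the GC covariate (0.069) and with the GC offset (0.159), and Tnf with a replicate block (0.0717) and with thinned counts (0.075). The count of 7 fell to 3 without M0 replicate 3 and to 4 without M2 replicate 1 or M2 replicate 3.

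The direct comparison of M1 with M2 set the stimulated states against each other. It called 3 of the 10 genes higher in M1 and 0 lower, beside 16.1% of all genes tested (10.6% higher and 5.46% lower). The 3 were Nfkbiz (28.7-fold, log2 4.84 ± 0.28, adjusted p = 5.24e-08), Nfkbia (6.82-fold, log2 2.77 ± 0.17, adjusted p = 7.64e-08) and Nfkbib (2.2-fold, log2 1.14 ± 0.19, adjusted p = 0.000761). No library of 1 group reached the other for these genes, and the 3 calls were kept without any library. Tnfaip3 was higher in M1 without overlap, with a log2 fold change of 0.49 ± 0.28 and an adjusted p of 0.258. None of the subunits was called by edgeR, 1 of the 5 (Nfkb2, log2 1.01 ± 0.37, adjusted p = 0.0821) had an unadjusted p under 0.05, and DESeq2 called 0 of them. Of all genes tested, 29.8% had an unadjusted p under 0.05 in edgeR. Without a filter on low counts, edgeR also called Nfkb2 (log2 0.99, adjusted p = 0.00871), which gave 4 members. With the GC index of the library (described below) as a covariate, Nfkb2 (log2 1.58, adjusted p = 0.000165) and Relb (log2 1.28, adjusted p = 0.000689) were also called, which gave 5 members. Of the other pathway genes, 29 of 67 were called higher and 0 lower, and 24 of the 62 that passed the filter without the M1 libraries (median log2 fold change 0.4, against -0.05 over all such genes). Among them were Traf1 (14.3-fold, adjusted p = 4.58e-07), Irak3 (11.8-fold, adjusted p = 1.37e-05) and Bcl3 (7.46-fold, adjusted p = 2.4e-06).

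The rods were compared with M0 to see whether the particles alone engage the pathway. In CaP_rods against M0, 0 of the 10 genes were called by edgeR and 0 by DESeq2, where edgeR called 0.654% of all genes tested (0.426% higher and 0.228% lower). At an unadjusted p under 0.05, edgeR had 5 of the 10 and 15.8% of all genes tested. The 5 all had a positive difference, namely Nfkb2, Nfkbie, Relb, Nfkbia and Nfkbib. A fit to the 9 M0 and rod libraries alone also called 0 of the 10. The median log2 fold change of the 10 genes was 0.43, against 0.0594 over all genes tested.

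Nfkb2 had the largest difference, at 18.1, 31.1 and 40.1 CPM in the CaP_rods libraries against 12.2, 19.1 and 11.8 CPM in M0, with CaP_rods replicate 1 inside the M0 range. The log2 fold change was 1.05 ± 0.37 and the adjusted p 0.212. Without a filter on low counts the adjusted p was 0.0159. Relb, its partner in the non-canonical arm, was at 9.95, 16.8 and 18.6 CPM against 6.43, 10.4 and 7.07 CPM (log2 0.92 ± 0.38, adjusted p = 0.263), and again CaP_rods replicate 1 was inside the M0 range. Nfkbie was at 13.8, 20.1 and 21.6 CPM against 6.72, 14.7 and 11.8 CPM (log2 0.76 ± 0.3, adjusted p = 0.252). The same library was the low one in all of these genes and in Rela, which was at 12.8 CPM there and at 30.4 and 29.2 CPM in the other two.

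The remaining inhibitors were not called with CaP_rods either. Nfkbia was at 354, 323 and 346 CPM, overlapping M0 replicate 2 (335 CPM), with a log2 fold change of 0.34 ± 0.16 (adjusted p = 0.313). Nfkbib was at 94, 97.3 and 104 CPM, above all M0 libraries, with a log2 fold change of 0.4 ± 0.18 (adjusted p = 0.315). Nfkbiz was at 4.16, 6.25 and 5.33 CPM, within reach of M0 and with a log2 fold change of 0.18 ± 0.25. Tnfaip3 was at 2.32, 4.4 and 3.39 CPM (log2 0.54 ± 0.28, adjusted p = 0.363). For scale, the fitted differences of Nfkbia and Nfkbiz in M1 against the same M0 libraries were 2.13 and 3.22.

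With SiO2_rods, 0 of the 10 genes were called by edgeR, 0 by DESeq2 and 0 had an unadjusted p under 0.05, where edgeR called 0.264% of all genes tested (0.222% higher and 0.042% lower). Of all genes tested, 8.17% had an unadjusted p under 0.05. Nfkbia stood at 273, 273 and 262 CPM, inside the M0 range, with a log2 fold change of 0.01 ± 0.16. Nfkb2 was at 15.7, 22.5 and 18.5 CPM (log2 0.39 ± 0.37) and Nfkbiz at 2.79, 3.56 and 3.73 CPM (log2 -0.44 ± 0.26). Rel was at 3.52, 4.01 and 4.99 CPM in SiO2_rods against 5, 5.98 and 6.02 CPM in M0, where the nearest libraries all but met. Its log2 fold change was -0.42 ± 0.23 and its adjusted p 0.696. The differences of the 10 genes lay between -0.44 and 0.41, with a median of 0.19.

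Between the rods, 0 of the 10 genes were called by edgeR or DESeq2, and edgeR called 0.018% of all genes tested (0.018% higher and 0% lower). The fitted difference was positive, that is higher in CaP_rods, for all 10 genes, from 0.05 for Nfkb1 to 0.66 for Nfkb2, with a median of 0.34 against 0.034 over all genes tested. For Nfkb1 and Tnfaip3 the sign turned without single libraries. The 10 genes did not vary independently, since 13 of their 45 pairs correlated within groups at r over 0.7, as given below. With other settings, the difference was 0.38 to 0.66 for Nfkb2 and 0.26 to 0.55 for Relb. Nfkbiz had an unadjusted p of 0.0275 (log2 0.62 ± 0.25, adjusted p = 1) and groups that did not overlap, at 4.16, 6.25 and 5.33 CPM in CaP_rods and 2.79, 3.56 and 3.73 CPM in SiO2_rods. Nfkbia did not overlap either (log2 0.34 ± 0.16, adjusted p = 1).

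Among the 67 other pathway genes, 3 were called higher in CaP_rods, 0 in SiO2_rods and 0 between the rods. The shares called over all genes tested were 0.654%, 0.264% and 0.018%. At an unadjusted p under 0.05 edgeR had 21, 13 and 6 of the 67, beside 15.8%, 8.17% and 1.66% of all genes tested. DESeq2 called 6, 1 and 2 of them, beside 2.76%, 0.654% and 0.0846% of all genes to which it gave an adjusted p. The 3 called genes in CaP_rods were chemokine genes of the target list. Ccl4 was at 627, 531 and 507 CPM in CaP_rods against 112, 201 and 150 CPM in M0 (log2 1.85 ± 0.21, adjusted p = 0.000968), and Ccl3 at 330, 302 and 268 CPM against 105 ± 8.8 CPM (SD, n = 3, log2 1.52 ± 0.19, adjusted p = 0.00112). Neither gene overlapped between the groups, and both stayed called without any 1 library. With the 6 libraries of these groups alone, their adjusted p-values were 0.0874 for Ccl4 and 0.0553 for Ccl3. In SiO2_rods, Ccl4 was at 273, 297 and 272 CPM and Ccl3 at 143, 140 and 153 CPM, between the M0 and the CaP_rods libraries, and M1 held 1170 to 1690 CPM of Ccl4 and 739 to 916 CPM of Ccl3. The third gene, Cxcl2, is named here after its values were seen, at 2.3 CPM in CaP_rods against 0.715 CPM in M0 (log2 1.72, adjusted p = 0.0427), and the count was 2 in 5 of the 6 fits without 1 library. Over the 15 target genes that passed the filter without the M1 libraries, the median log2 fold change was 0.76 in CaP_rods and 0.48 in SiO2_rods, against 0.06 and -0.02 over all such genes. Tirap, called lower in M1 and M2, is added here after its values were seen. Its log2 fold change from M0 was -0.8 ± 0.17 in CaP_rods (adjusted p = 0.0516) and -0.5 ± 0.17 in SiO2_rods (adjusted p = 0.406). Neither difference was called by edgeR, and neither rod group overlapped M0 for this gene.

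The balance of non-canonical to canonical subunits was taken within each library, as a ratio of counts. The ratio of Relb plus Nfkb2 counts to Rela plus Nfkb1 counts was 0.263, 0.314 and 0.203 in M0, 0.487, 0.486 and 0.675 in CaP_rods and 0.414, 0.384 and 0.381 in SiO2_rods. Neither rod group overlapped M0, and the ratio was 2.12-fold higher in CaP_rods and 1.53-fold higher in SiO2_rods, each with an exact permutation p of 0.1, the smallest possible. Within groups, levels of Relb and Nfkb2 moved with the base composition of the libraries, given below as a GC index of -0.59 to 0 in M0, -0.04 to 0.38 in CaP_rods and -0.03 to 0.12 in SiO2_rods. The index was computed from these same libraries and lay mostly lower in M0, so its part and that of the rods cannot be told apart. With that index as a covariate, the log2 difference of the ratio was 0.46 in CaP_rods and 0.18 in SiO2_rods, in place of 1.08 and 0.62. In M1 the ratio was 0.297, 0.542 and 0.604, which overlapped M0 (1.79-fold, exact permutation p = 0.2), and in M2 it was 0.256, 0.103 and 0.276 (0.756 of M0, exact permutation p = 0.6). Per kilobase, Nfkb1 made up 37.3% ± 5.64 of the subunit transcripts in CaP_rods and 43.6% ± 2.53 in SiO2_rods, under its 53.4% ± 2.81 in M0. Within groups, Nfkb1 was lower in deeper libraries (r = -0.87 with log depth). Total counts ran from 8459643 to 39201265 in M0 and from 14632876 to 50729211 in CaP_rods. The part of depth in the subunit ratio and in the Nfkb1 share was not tested. The ratio of Nfkbia to Rela was 0.994 of M0 in CaP_rods and 0.924 in SiO2_rods, with overlap in both. With the GC index as a covariate, its log2 difference was 0.5 in CaP_rods and 0.24 in SiO2_rods, in place of -0.01 and -0.11.

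**Figure D3:**
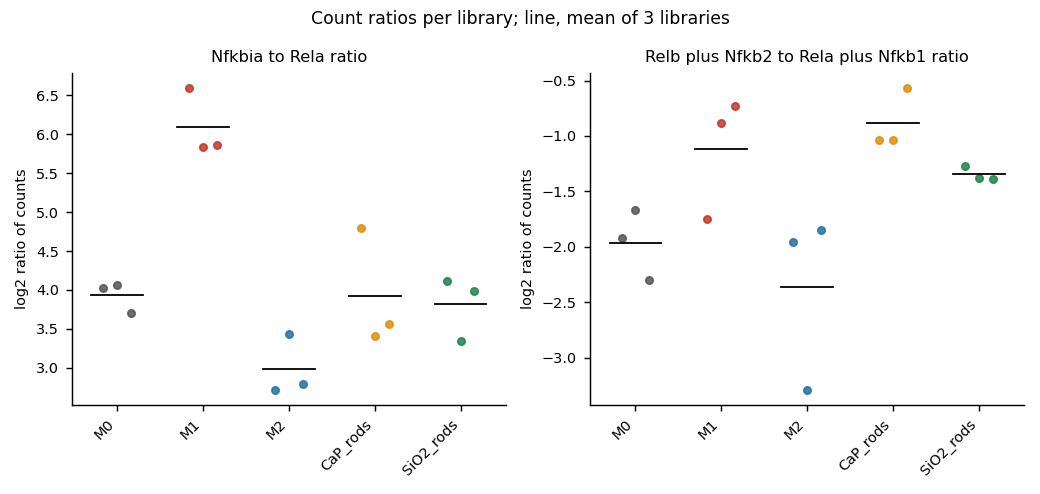
Log2 ratio of Nfkbia to Rela counts (left) and of Relb plus Nfkb2 to Rela plus Nfkb1 counts (right) in the 15 libraries by group, with a point per library and a line at the mean of 3 libraries. The mean of the left ratio is highest in M1 and lowest in M2, and in the right panel all libraries of both rod groups stand above M0.

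Much of the spread within groups was shared by a subset of the 10 genes. After the group means were removed, Relb and Nfkb2 correlated at r = 0.92 over the 15 libraries, Nfkbib and Nfkbie at 0.91 and Rela and Nfkbie at 0.88, and 13 of the 45 pairs exceeded 0.7. In each pair both genes were read from the same libraries, which differ in depth and base composition. The libraries were scored by a GC index, the mean log2 deviation of the tenth of genes richest in GC minus that of the tenth poorest, without the 10 members. The index was -0.59 to 0 in M0, -0.57 to 0.12 in M1, -0.19 to 0.45 in M2, -0.04 to 0.38 in CaP_rods and -0.03 to 0.12 in SiO2_rods, and it was lowest in M0 replicate 1 and M1 replicate 1.

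The within-group deviation of 5 members followed this index closely, at r = 0.94 for Relb (61.1% GC), 0.92 for Nfkbie (55.7%), 0.91 for Nfkb2 (59.4%), 0.88 for Nfkbib (58.8%) and 0.85 for Rela (59.4%). Nfkbiz (50.1% GC, r = -0.12), Tnfaip3 (49.4%, r = -0.21) and Nfkb1 (53.1%, r = 0.09) did not. Nfkbia (52.9%, r = 0.69) and Rel (r = 0.58) lay between, although Rel had the lowest GC content of the 10 (42.5%). Nfkb1 varied with log depth (r = -0.87 over the same 15 libraries). With the GC index as a covariate, an alternative added after the data were seen, the differences of CaP_rods from M0 were 0.25 for Nfkb2, 0.07 for Relb and 0.18 for Nfkbie, in place of 1.05, 0.92 and 0.76. The differences of M1 from M0 stayed at 3.24 for Nfkbiz, 2.08 for Nfkbia, 0.99 for Nfkbib and 1.16 for Nfkb2, all called. In M2 against M0 the covariate gave Relb a log2 fold change of -0.94 with an adjusted p of 0.049, where the fit without it gave 0.05. As the index itself differed between groups, a fit with this covariate cannot separate base composition from treatment.

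**Figure D4:**
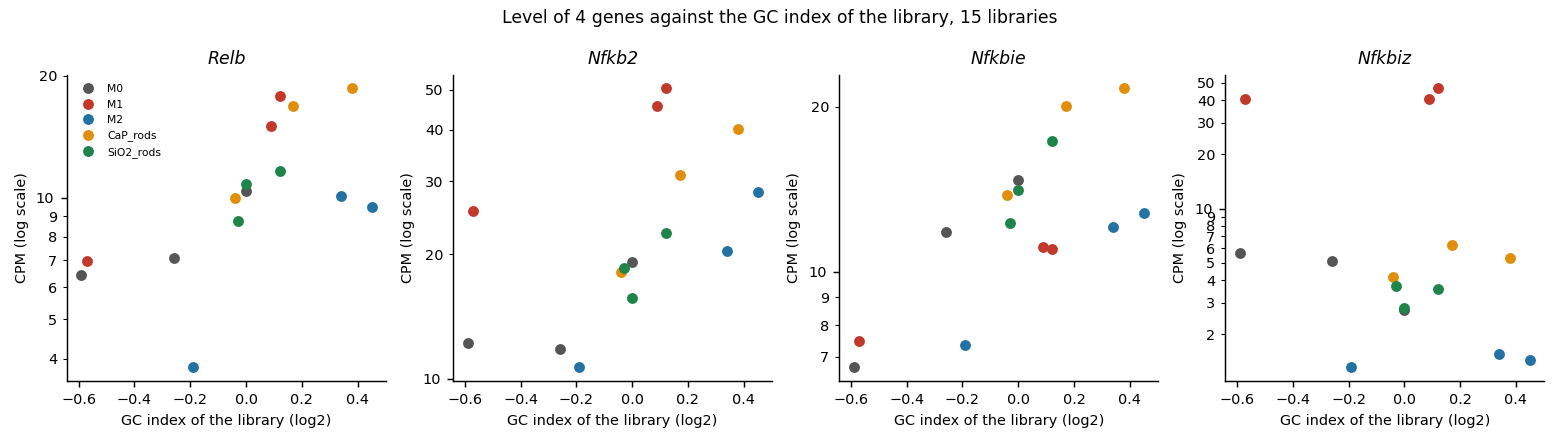
Level of Relb, Nfkb2, Nfkbie and Nfkbiz in CPM (vertical axes, log scale) against the GC index of the library (horizontal axes, log2 units), with a point for each of the 15 libraries coloured by group. Relb, Nfkb2 and Nfkbie tend to be higher at a higher index within groups, while for Nfkbiz the M1 libraries lie above and the M2 libraries below the other groups at any index.

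Genes of like pattern were sought for Tnfaip3 and for the inhibitor and the subunit with the largest M1 difference, by the Pearson correlation of log2 CPM over the 15 libraries among 15101 genes. Closest to Nfkbiz were Pla1a, a phospholipase gene (r = 0.98), Lrrc8d, a subunit gene of volume-regulated anion channels (0.974), and Btg2, an antiproliferative gene (0.969). All had their highest levels in M1 and their lowest in M2, as with Btg2 at 20 to 22.7 CPM in M1, 7.22 to 7.76 in M0 and 3.29 to 5.44 in M2. Closest to Nfkb2 were Sbno2 (0.957), Dtx2 (0.951) and Csrnp1 (0.95). For Tnfaip3 they were AC115752.1 (0.872), Zfp580 (0.862) and Rnf19a (0.853). Tnfaip3 had few counts (21 to 207 per library), and the correlations of its closest genes were lower. The libraries of a group share their treatment, so these values describe the 5 groups as much as 15 libraries. Nfkb2 also followed the GC index within groups (r = 0.91), and the part of base composition in these correlations was not tested.

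Across the 5 groups, the mean level of Nfkbia was highest in M1 (1180 ± 124 CPM), followed by CaP_rods (341 ± 16.1), SiO2_rods (270 ± 6.27), M0 (269 ± 63.1) and M2 (173 ± 9.17). M1 and M2 differed from M0 by the test, the M2 call being the marginal one described above (also lost without a filter on low counts, adjusted p = 0.118, and with a replicate block, 0.0794), while CaP_rods, SiO2_rods and M0 were neighbours whose differences did not pass it. Nfkbiz kept nearly the same order, with M1 (42.7 ± 3.35 CPM) above CaP_rods (5.25 ± 1.04), M0 (4.51 ± 1.56), SiO2_rods (3.36 ± 0.498) and M2 (1.44 ± 0.122), and again the middle groups were not separated. Nfkb1 was ordered differently, with M2 (111 ± 21.1 CPM) above M1 (93.2 ± 4.47), M0 (68.2 ± 8.96), CaP_rods (56.9 ± 11.6) and SiO2_rods (55 ± 6.94), and no comparison made here between these neighbours passed the test.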

How the data were processed

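Poly(A) RNA of 15 MH-S wells was made into Smart-seq2 libraries, which carry no molecular identifiers and no strand, so that reads of a gene and of an overlapping antisense gene cannot be told apart. The authors processed the reads with the nf-core/rnaseq pipeline (STAR and Salmon, Ensembl annotation) and deposited 1 table of whole-number counts per gene without normalization. Salmon estimates counts, so these may be rounded estimates, and overlapping or near-identical genes were split at that step. All columns were mapped by name, and 0 were unused. Symbols were found for 51487 of 78317 identifiers. Lengths and GC content came from the longest GRCm38 transcript, for 90.7% of genes tested.

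The count table was tested in R 4.3.3 using edgeR 4.0.16 (filterByExpr by group, TMM, quasi-likelihood test without its legacy option, no replicate term) in 6 comparisons. DESeq2 1.42.0 served as an alternative. A gene with no count above 3 in M0 is given as CPM without a fold. Counts of amplified cDNA are not independent molecules, so the precision that depth gives covers counting error only, and 1 count was worth 0.01431 to 0.1316 CPM. Fits without each library, unfiltered, with a minimum of 10 counts in each library, with DESeq2's size factors, a replicate block, thinned counts or fewer libraries were also made. Same-numbered libraries of M0 and M1 deviated together (r of deviations from group means 0.206 to 0.292 in 3 of 3 pairs), which is a hint from the data, as the numbers have no stated meaning. A replicate block in those 6 libraries left the 5 called members. GC covariate, GC offset, that block, the filter without M1 libraries and the legacy test were added after the data were seen. From a list, at most 6 called genes with the largest change and a mean of at least 5 CPM in a group are named. The members, the lists and the naming rule were chosen with earlier results of these data known.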

Additional observations from a re-analysis of the deposited data

How the results depend on the processing

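Counts of called genes and ratios (20 results) were recomputed in 276 further fits, of which 243 stayed within 1.5 times the reported count or within 1 SD of the reported ratio. Without a filter on low counts, 1 member was called in M2 against M0 (2 reported) and 1 in CaP_rods against M0 (0 reported, Nfkb2), and 4, 8, 2 and 2 of the other pathway genes in M2, CaP_rods and SiO2_rods against M0 and between the rods (7, 3, 0 and 0 reported). DESeq2 called 6, 1 and 2 of the latter in CaP_rods and SiO2_rods against M0 and between the rods. With the 6 libraries compared alone, 0 members and 1 other pathway gene were called in M2 against M0 and 0 other pathway genes in CaP_rods against M0, and counts thinned to the smallest library gave 4 in M2 against M0. The GC covariate and the GC offset each gave 5 members in M1 against M2 (3 reported), and the covariate 1 other pathway gene between the rods. With the covariate, the log2 difference of the Nfkbia to Rela ratio from M0 was -0.4 in M2 and 0.24 in SiO2_rods, and that of the Relb plus Nfkb2 ratio -1.06 in M2, 0.46 in CaP_rods and 0.18 in SiO2_rods. The cause was not tested. Omission of 1 library gave 3 to 5 members in M1 against M0, 1 to 2 members in M2 against M0 and 3 to 7 other pathway genes there.

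Same-numbered libraries deviated together in all 3 pairs of M0 and M1 but not in all 3 pairs of any of the other 5 comparisons (r from -0.704 to 0.604). With a replicate block in the 6 M0 and M1 libraries, 5 members and 30 other pathway genes were called, as reported, and Rela was at -0.06. With a replicate block in all libraries the counts in M1 against M0 were also 5 and 30, and 1 member and 4 other pathway genes were called in M2 against M0.

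Direction turned for members that had not been called. With the GC index as a covariate, the log2 fold change of Rela was -0.27 in M1, -0.43 in M2, -0.29 in CaP_rods and -0.33 in SiO2_rods against M0 and 0.16 in M1 against M2, that of Relb -0.94 in M2 and -0.19 in SiO2_rods, that of Nfkb2 -0.42 in M2 and -0.13 in SiO2_rods, that of Nfkbie -0.65 in M2 against M0 and 0.31 in M1 against M2, and that of Nfkbia -0.11 in SiO2_rods. With the GC offset, Rela was at -0.22 in M1 and -0.06 in SiO2_rods, Relb at -0.36 and Nfkbie at -0.24 in M2, Nfkbia at -0.1 in SiO2_rods and Nfkb1 at -0.06 between the rods. Differences next to 0 changed sign elsewhere, namely Nfkbie in M2 (-0.01 with DESeq2, with the stricter filter, with 6 libraries and with thinned counts, and -0.02 with the legacy test), Relb in M2 (0 with the legacy test), Rela in M1 (0 with 6 libraries) and Nfkbia in SiO2_rods (0 with DESeq2's size factors and -0.05 with thinned counts). Omission of 1 library gave ranges across 0 for Rela (-0.17 to 0.31) and Nfkbie (-0.46 to 0.14) in M1, Relb (-0.19 to 0.33), Nfkbib (-0.24 to 0.09) and Nfkbie (-0.3 to 0.3) in M2, Nfkbie in M1 against M2 (-0.44 to 0.01), Rel (-0.26 to 0.07) and Nfkbiz (-0.07 to 0.43) in CaP_rods, Rela (-0.11 to 0.3) and Nfkbia (-0.16 to 0.2) in SiO2_rods, and Nfkb1 (-0.1 to 0.18) and Tnfaip3 (-0.01 to 0.41) between the rods. No called direction was reversed. Depth limits Nfkbiz and Tnfaip3 most, with 10 and 21 counts in their poorest libraries.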
